A study of Mus musculus with 9 samples.

Results

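The MHC class II presentation genes H2-Aa, H2-Ab1, H2-Eb1, H2-DMa, H2-DMb1, Cd74, Ciita and Ctss were taken by symbol, 8 of the 35013 genes in each table, and all 8 were present. RNA-Seq was done on 9 libraries from cells of the small intestinal epithelium of NFKO mice (Neurog3Cre-FoxO1 f/f; Rosa26tdtomato), 4 to 6 weeks old, stained for CD24 and Epcam and sorted into Tomatoneg cells and 2 Tomato+ populations, CD24negTomato+ and CD24+Tomato+, each with 3 replicates. Neurog3Cre switches on Tomato and deletes FoxO1 in the same progenitors and their progeny, so both Tomato+ populations combine a lineage with the deletion. Tomatoneg cells are the sorted epithelial cells without Tomato, and no group with intact FoxO1 in the Neurog3 lineage was compared. The deposited values are counts normalized within a table of 6 libraries, and the Tomatoneg libraries are in both tables.

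MHC class II molecules display peptides from proteins taken up and cut in the endosome, and CD4 T cells read them. An α chain (H2-Aa) pairs with a β chain (H2-Ab1), and H2-Eb1 is the β chain of the second mouse isotype. Cd74, the invariant chain, fills the groove until cathepsin S (Ctss) trims it, and the H2-DM dimer (H2-DMa with H2-DMb1) then exchanges the remaining fragment for peptide. Ciita is the coactivator that drives the transcription of class II genes through X and Y boxes in their promoters. B cells, dendritic cells and macrophages express these genes constitutively, and intestinal epithelial cells, stem cells included, can express them too, under control of interferon-γ and the microbiota.

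Promoter sequences are shown for an α chain, a β chain, a DM subunit and Ctss, since Ctss is the member whose values did not follow the others below. They run from 250 bases before to 50 after the RefSeq start on GRCm38.p6, written 5′ to 3′ on the gene's strand, and capitals mark motifs searched on both strands. The Y box was searched by the letters CTGATTGG. Its core, which reads CCAAT on the opposite strand, was searched by the letters ATTGG. The X box core was searched by the letters AGCAAC. Of the 8 members, 5 were matched in the promoter table.
H2-Aa, chr17:34287774-34288073, minus strand: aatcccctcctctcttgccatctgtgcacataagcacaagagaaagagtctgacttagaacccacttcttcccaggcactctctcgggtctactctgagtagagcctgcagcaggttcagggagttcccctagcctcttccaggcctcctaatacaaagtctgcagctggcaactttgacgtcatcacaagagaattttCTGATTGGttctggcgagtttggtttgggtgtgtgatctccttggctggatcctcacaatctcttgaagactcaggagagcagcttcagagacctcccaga
H2-Eb1, chr17:34305617-34305916, plus strand: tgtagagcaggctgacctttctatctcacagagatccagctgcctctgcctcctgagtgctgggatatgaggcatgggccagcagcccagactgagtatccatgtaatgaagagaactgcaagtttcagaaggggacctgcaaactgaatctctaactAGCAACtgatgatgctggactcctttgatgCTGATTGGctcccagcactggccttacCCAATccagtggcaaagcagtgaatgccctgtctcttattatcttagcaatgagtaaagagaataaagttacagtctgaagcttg
H2-DMb1, chr17:34152941-34153240, plus strand: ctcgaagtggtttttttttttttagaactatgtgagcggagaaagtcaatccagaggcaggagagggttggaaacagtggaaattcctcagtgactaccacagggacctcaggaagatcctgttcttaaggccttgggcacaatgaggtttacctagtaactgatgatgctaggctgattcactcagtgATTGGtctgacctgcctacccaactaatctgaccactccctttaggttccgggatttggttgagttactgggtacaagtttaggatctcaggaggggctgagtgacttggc
Ctss, chr3:95526536-95526835, plus strand: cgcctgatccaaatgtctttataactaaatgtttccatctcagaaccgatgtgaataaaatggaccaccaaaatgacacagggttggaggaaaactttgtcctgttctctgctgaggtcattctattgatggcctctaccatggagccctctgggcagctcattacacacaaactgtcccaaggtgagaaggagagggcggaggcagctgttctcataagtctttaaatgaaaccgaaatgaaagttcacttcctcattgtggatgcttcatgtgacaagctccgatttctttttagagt

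The full Y box letters stood in the H2-Aa and H2-Eb1 windows, with the first base 51 and 62 bases before the start, and 4.10% of 32851 promoters of the table hold them on either strand. H2-DMb1 held only the core ATTGG, 61 bases before the start, which 37.4% of promoters hold and which lies within the longer letters. The X box core was found in H2-Eb1, 92 bases before the start, and in 14.8% of promoters. Only exact matches were counted, so a box with any differing base would be missed. None of these letters was found in the Ctss window. Of 2 windows of H2-DMa, whose values did follow the other members, 1 held none of them either and the other held only the core ATTGG, 198 bases before the start. These windows begin at 34122582 and 34125268, inside the annotated gene (34119541 to 34139101) and not at its first base. Other possible starts of H2-DMa were not searched.

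The 5 classical and DM genes lie together on chromosome 17 of GRCm38 (GENCODE M21), with H2-DMa at 34119541 to 34139101, H2-DMb1 at 34153072 to 34160230, H2-Ab1 at 34257689 to 34269419, H2-Aa at 34282744 to 34287823 and H2-Eb1 at 34305867 to 34316674. Ciita lies on chromosome 16 (10480059 to 10528418) and Ctss on chromosome 3 (95526786 to 95556403). Values are given per gene symbol, with no separation of isoforms. H2-DMb1 has a near copy, H2-DMb2, with which reads may be shared, and H2-DMb2 was at most 125 normalized counts in any library.

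Library depth, estimated from the smallest common value, was 27723742 to 39234462 reads in Tomato+ libraries and 19158348 to 24368832 in Tomatoneg libraries, and 3 reads equalled a normalized count of at most 4.29. All 8 members were above that limit in every library. Tomatoneg replicate 1 had 13025 genes above 0, against 15644 to 18530 in the others. Foxo1, the deleted gene, had normalized counts of 467, 274 and 371 in replicates 1, 2 and 3 of CD24negTomato+ and of 695, 518 and 424 in Tomatoneg (log2 fold change -0.56, limma adjusted P = 0.427), and 319, 193 and 201 in CD24+Tomato+ (log2 fold change -1.27, adjusted P = 0.0579). With a block for the replicate number, described below, the adjusted P values were 0.207 and 0.0219, so Foxo1 was called lower in CD24+Tomato+ with the block and not without it. Reads outside the deleted part also count toward Foxo1. In every same-numbered pair it was lower in the Tomato+ library.

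Per kilobase of exon, the highest and the lowest member were the same in every library, and the order between them was fixed in part. Cd74 was highest in 9 of 9 libraries, with a mean level of 7278 ± 8344 normalized counts per kilobase (SD, n = 3) in CD24negTomato+, 10671 ± 11587 in Tomatoneg and 5666 ± 5476 in CD24+Tomato+. H2-Eb1 was above H2-Aa, H2-DMb1 above H2-DMa, and H2-DMa above Ciita in 9 of 9 libraries. H2-Aa stood above H2-DMb1 in 6 of 9, and Ctss changed places with H2-Ab1 and H2-Eb1, so that these neighbors had no fixed order. Ciita, the regulator, had the lowest level, 46.8 ± 52.1 in CD24negTomato+, 55.6 ± 55.7 in Tomatoneg and 20.9 ± 15.98 in CD24+Tomato+. The SDs were about as large as the means because 1 replicate stood far above the other 2 in each population.

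The chains of the peptide receptor carried this difference between replicates. In CD24negTomato+ cells, H2-Aa had normalized counts of 1837, 366 and 7484 in replicates 1, 2 and 3, and in Tomatoneg cells of 1050, 1242 and 9769. In CD24+Tomato+ cells its values were 977, 575 and 4734. Replicate 3 was the highest library in each population, and the populations overlapped. H2-Ab1 was at 2423, 1723 and 10722 in CD24negTomato+, 2573, 2682 and 14690 in Tomatoneg, and 1608, 2258 and 10061 in CD24+Tomato+. H2-Eb1 was at 1235, 448 and 5115, then 1135, 1288 and 8022, then 800, 854 and 4778 in the same populations. All 3 chains ranked replicate 3 first in each population, while replicates 1 and 2 had no shared order.

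**Figure D1:**
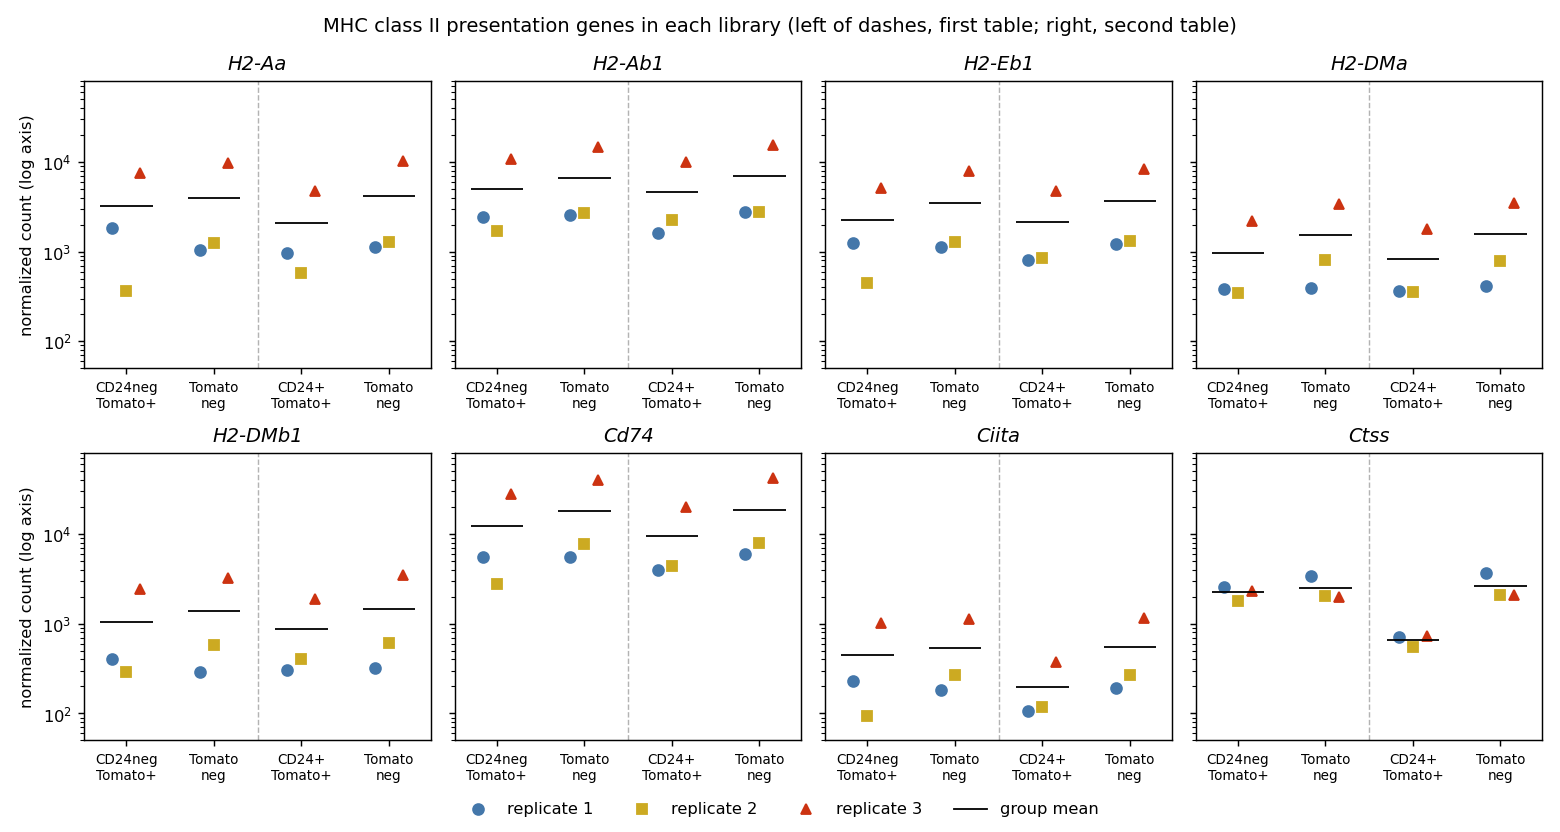
Normalized counts of the 8 genes in each library on a log axis, with points for replicates 1, 2 and 3 and a bar for the mean of the 3; Tomatoneg libraries appear in both tables. For every gene but Ctss the 3 replicate 3 libraries lie above all others, for H2-Aa at 4734 or more against at most 1837 in the rest of the libraries.

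The chaperones and the regulator did the same. Cd74 was at 5543, 2797 and 28319 in CD24negTomato+, 5562, 7845 and 40341 in Tomatoneg, and 3979, 4432 and 20127 in CD24+Tomato+. H2-DMa was at 387, 350 and 2186, then 395, 802 and 3438, then 362, 357 and 1769. H2-DMb1 was at 401, 290 and 2436, then 292, 585 and 3260, then 302, 405 and 1895. As for the receptor chains, the highest library was replicate 3 in each population. Ciita was at 232, 93.0 and 1015 in CD24negTomato+, 183, 267 and 1141 in Tomatoneg, and 106, 118 and 375 in CD24+Tomato+. It was the least abundant of the 8 genes and had the same highest library in each population.

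Ctss, the protease of the group, differed. It was at 2576, 1777 and 2343 in CD24negTomato+ and at 3439, 2039 and 1992 in Tomatoneg, and its 6 values in this table overlapped. In CD24+Tomato+ it was at 705, 558 and 731, against 3708, 2088 and 2092 for Tomatoneg in the same table. All 3 CD24+Tomato+ libraries were below all 3 Tomatoneg libraries, and replicate 3 was not set apart.

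In numbers, replicate 3 exceeded the higher of the other 2 replicates by 3.19- to 7.86-fold for the 7 genes other than Ctss in all 3 populations, with a median of 4.85-fold over the 21 values. By population the range was 4.28- to 7.86-fold in Tomatoneg, 4.07- to 6.08-fold in CD24negTomato+ and 3.19- to 5.60-fold in CD24+Tomato+. For Ctss the same folds were 0.58 in Tomatoneg, 0.91 in CD24negTomato+ and 1.04 in CD24+Tomato+. Among all 13239 genes tested in both tables, 16 were over 3-fold higher in replicate 3 in all 3 populations, and 7 of these 16 were the members named here. The threshold of 3 was chosen after the members' values were seen. The other 9 were Ubd, Calhm6, Cpa1, Eda, 9530053A07Rik, Gm13328, Gm13456, Gm8116 and Rab11b-ps2. Ubd, a ubiquitin-like protein made in inflammation, was at 56.0, 103 and 639 in CD24negTomato+, 119, 81.8 and 402 in Tomatoneg and 17.4, 8.38 and 69.7 in CD24+Tomato+.

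The replicate number was then tested as a term of the limma fit, a test also chosen after the values were seen. In the CD24negTomato+ and Tomatoneg libraries, 5 of 8 members passed, against 1.29% of all genes tested. These were H2-Ab1 (adjusted P = 0.0268), H2-DMa (adjusted P = 0.0425), Cd74 (adjusted P = 0.0432), H2-DMb1 (adjusted P = 0.0463) and H2-Eb1 (adjusted P = 0.0465). H2-Aa (adjusted P = 0.0715), Ciita (adjusted P = 0.0919) and Ctss (adjusted P = 0.226) did not pass. In the CD24+Tomato+ and Tomatoneg libraries, 6 of 8 passed, against 1.49% of all genes. H2-Eb1 ranked 6th, Cd74 9th and H2-Ab1 10th of 13874 genes, with limma adjusted P of 0.00957, 0.0107 and 0.0107. H2-Aa (0.0223), H2-DMb1 (0.0231) and H2-DMa (0.0304) also passed, and Ciita (0.0783) and Ctss (0.376) did not. The counts share the Tomatoneg libraries and are not independent.

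The rest of the pathway was not called on the replicate number. No gene of the other class II pathway list (15 tested), the class I list (14) or the interferon-γ response list (18 and 17) passed the test of the replicate number in either table, with Tap1 (limma adjusted P = 0.0571 and 0.0517) and Tap2 (0.0563 and 0.0731), the peptide pump of class I, the closest pair in the table of CD24negTomato+. In that of CD24+Tomato+, Jak2 (0.0631) and Psmb10 (0.0706) lay between them. Tap1 was at 4397, 2580 and 6367 in CD24negTomato+ and 4438, 3346 and 7999 in Tomatoneg. Rfx5, a subunit of the factor bound at the X box, was at 230, 234 and 268 in CD24negTomato+ and 345, 209 and 374 in Tomatoneg. The median deviation of replicate 3 from the population mean was 1.85, 1.57 and 1.74 log2 units for the 8 members in CD24negTomato+, CD24+Tomato+ and Tomatoneg. It was -0.08, 0.01 and 0.01 for the interferon-γ response list and 0.06, 0.34 and 0.22 for the class I list. These medians cover genes that moved in both directions. In replicate 3, Irf1, Irf8, Socs1, Igtp and Irgm1 exceeded both other replicates of every population. So did H2-K1, Tap1, Psmb8, Psmb9, Psmb10 and Nlrc5 of class I, and all these genes by at most 2.13-fold over the higher one. Jak2, Gbp3 and Canx were below both in every population. These genes were named after their values were seen. Markers of epithelial cell types also moved with the replicate number. Enterocyte genes (5 and 7 of 8 in the tables of CD24negTomato+ and CD24+Tomato+) and Paneth genes (3 and 6 of 6) passed that test, and they set replicate 1 apart rather than replicate 3: the enterocyte sum was 658462, 162443 and 171706 in Tomatoneg and the Paneth sum 37533, 140690 and 148432. Their part in the members' values was not tested.

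**Figure D2:**
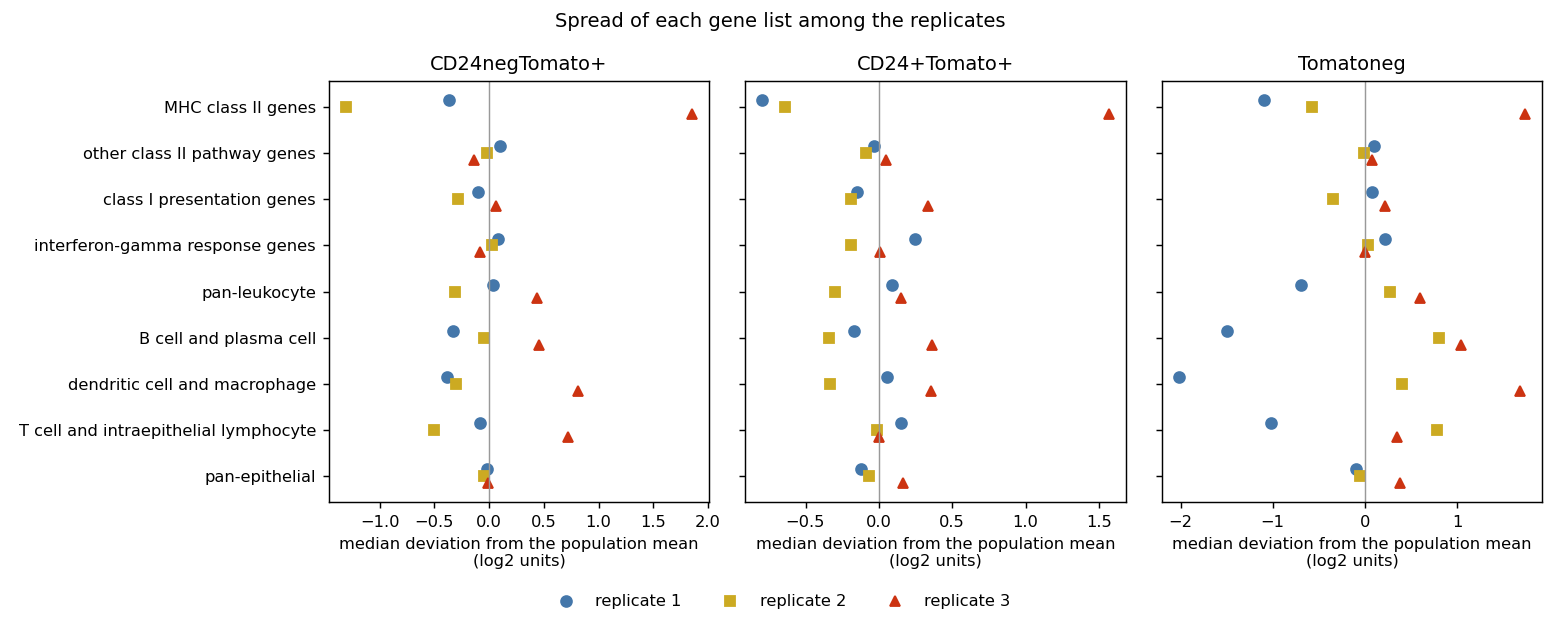
Median deviation of each gene list from its population mean in log2 units, by replicate (color and shape), in the 3 populations. The class II genes of replicate 3 lie 1.57 to 1.85 units above the mean in all 3 panels. The leukocyte lists set replicate 1 apart in Tomatoneg, with the dendritic cell and macrophage list at -2.02. That list is also highest in replicate 3 of each population, at 0.81 in CD24negTomato+, 0.35 in CD24+Tomato+ and 1.68 in Tomatoneg.

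Whether same-numbered libraries share mice, a sort or a day is not stated. Same-numbered libraries deviated together over all genes (r = 0.291 to 0.342 and 0.180 to 0.375), so results are given both without and with a replicate block, a term that takes out the mean of each replicate number. In the comparison of CD24+Tomato+ with Tomatoneg, all 8 genes were lower in each of the 3 same-numbered pairs, with a median log2 fold change of -0.80, against 0.16 over all genes tested. The share of all genes lower in all 3 pairs was not computed. All genes but Ctss moved together (r of 0.964 to 0.998 with the mean of the 8), so the 8 are not independent results. Without the block, only Ctss passed as lower (1 of 8, against 4.89% of all genes called lower and 8.02% called higher), with a log2 fold change of -1.94 ± 0.29 (SE, limma adjusted P = 0.0093). Its groups did not overlap, as for 14.4% of all genes in that direction. The call was lost without CD24+Tomato+ replicate 2 (log2 fold change -1.82, adjusted P = 0.0648), and without both libraries of replicate 2 or of replicate 3 (adjusted P = 0.154 and 0.102).

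With the replicate block, 6 of the 8 genes were lower in CD24+Tomato+, against 9.95% of all genes called lower and 10.8% called higher. Ctss (adjusted P = 0.0016), Cd74 (log2 fold change -0.84 ± 0.15, adjusted P = 0.0121) and H2-Eb1 (-0.69 ± 0.15, adjusted P = 0.0230) were furthest inside the limit. H2-Aa (-0.83 ± 0.22, adjusted P = 0.0432), H2-Ab1 (-0.56 ± 0.16, adjusted P = 0.0467) and Ciita (-1.22 ± 0.35, adjusted P = 0.0499) passed narrowly. H2-DMa (-0.77 ± 0.25, adjusted P = 0.0719) and H2-DMb1 (-0.52 ± 0.23, adjusted P = 0.159) did not pass. The count in this fit rested on single replicates and on scaling. It was 7 without replicate 1, 3 without replicate 2 and 1 without replicate 3, and it was 2, Cd74 and Ctss, with equal library totals. Over all genes, these fits called 1701 of 13779, 1084 of 13853, 1113 of 13891 and 1156 of 13874 lower.

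In the comparison of CD24negTomato+ with Tomatoneg, no member passed in either direction, with or without the block. The background was 0.32% of genes called lower and 0.999% called higher without the block, and 2.96% and 4.34% with it. All 8 fold changes were negative, from -0.13 for Ctss to -0.68 ± 1.01 (SE) for H2-Eb1, with a median of -0.45 against 0.08 over all genes. The pairs shared a direction for 3 of the 8 genes, H2-Ab1, H2-DMa and Cd74, which were lower in all 3, by little in replicate 1 (log2 differences -0.09, -0.03 and -0.0048). In replicate 2 all 8 were lower in CD24negTomato+, H2-Aa by the most (log2 difference -1.76). In replicate 1, H2-Aa was higher (0.81), as were H2-DMb1 (0.46), Ciita (0.34) and H2-Eb1 (0.12). In replicate 3, 7 of 8 were lower and Ctss was higher (0.23). With the block, adjusted P ran from 0.166 for H2-Ab1 to 0.663 for Ctss, and none of the 8 separated the groups, against 10.6% of genes whose CD24negTomato+ values were all below. Without replicate 1 the blocked fit called 4 genes lower, H2-Eb1, H2-DMa, H2-Ab1 and Cd74. That fit called 1202 of 13431 genes lower and 1636 higher, more than with all replicates.

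**Figure D3:**
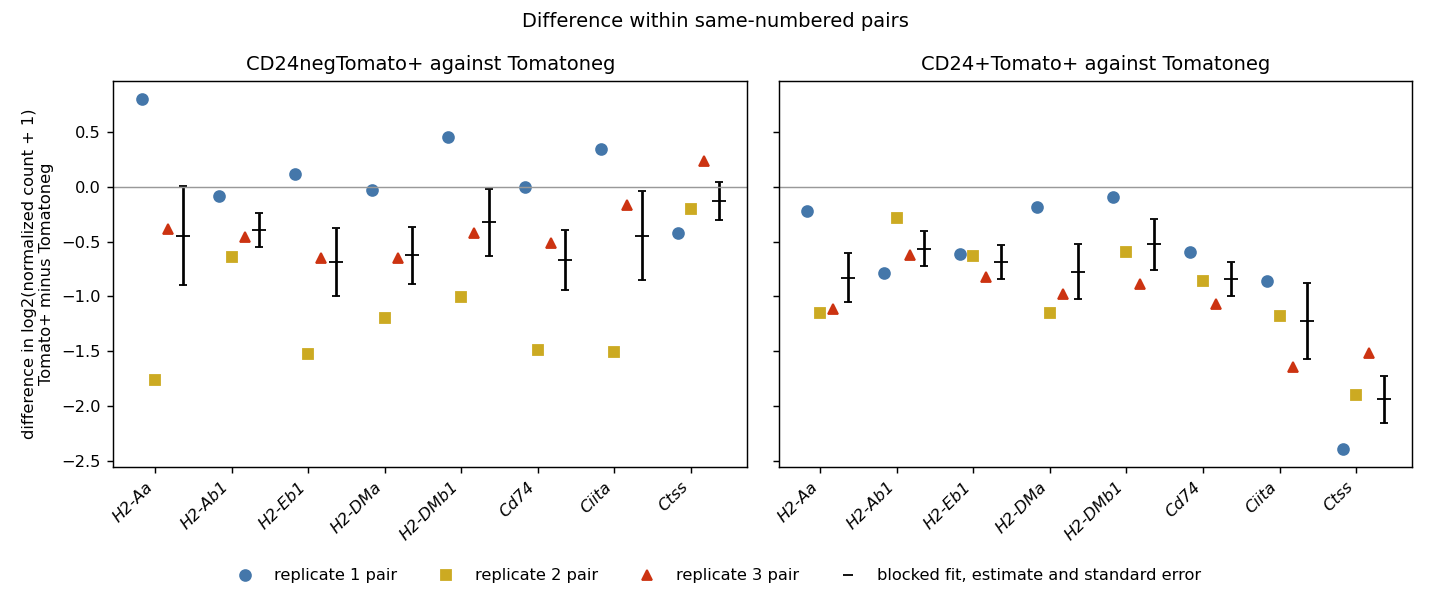
Difference in log2(normalized count + 1), Tomato+ minus Tomatoneg, within same-numbered pairs (colored points) and the fitted value with its standard error in the blocked fit (black), for the 8 genes. In CD24+Tomato+ all points lie below 0, and in CD24negTomato+ those of replicate 1 spread from -0.42 to 0.81.

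Of the rest of the class II pathway, 19 listed genes were in the tables and 15 were tested, and none passed in either comparison without the block. Ctsb and Ctsd, cathepsins of the endosome, were the most abundant, and Ctsb was at 16653, 10500 and 16354 in CD24negTomato+ and 15871, 13063 and 18625 in Tomatoneg (log2 fold change -0.14, adjusted P = 0.822). With the block, Sppl2a, which cuts the last stump of the invariant chain, was higher in CD24negTomato+ (1.26 ± 0.19, adjusted P = 0.0238). In CD24+Tomato+, Ctsb (-0.84, adjusted P = 0.00964) and the ubiquitin ligase Marchf8 (-0.69, adjusted P = 0.0243) were lower and Ctsl higher (1.51, adjusted P = 0.0354) in that fit. These calls were 2 and 1 of 15 genes, against 9.95% of all genes called lower and 10.8% called higher, so they were near the background. For CD24negTomato+ it was 1 of 15 called higher, against 4.34% of all genes. H2-Ob, a chain of the H2-O dimer of B cells, was under 3 reads in all CD24negTomato+ libraries (1.14, 0.895 and 0.744) and in Tomatoneg replicate 1 (1.62), and above that limit in Tomatoneg replicates 2 and 3 (18.2 and 52.8). Of the costimulatory ligands, Cd80 and Cd86 were at most 4.88 in any library.

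Of the class I presentation and interferon-γ response genes, 1 of 14 and 4 of 17 were lower in CD24+Tomato+, against 4.89% of all genes, and 5 and 6 with the block, against 9.95%. The class I count without the block was near the background. B2m, the light chain of class I, was at 12005, 10742 and 16014 in CD24+Tomato+ and 39208, 23512 and 30576 in Tomatoneg (log2 fold change -1.26 ± 0.30, adjusted P = 0.0349), was the class I gene called without the block. With the block these were B2m, Tap1, Tap2, Psmb8 and Psmb9. The interferon-γ response genes lower without the block included Igtp (-1.55, adjusted P = 0.0436), Ifngr2 (-1.43, adjusted P = 0.0325) and Irf8 (-1.08, adjusted P = 0.0331). Ifngr1 and Irf1 were called with the block and not without it. The 5 calls of these lists without the block fell to 2 without CD24+Tomato+ replicate 1, to 0 without its replicate 2 or 3, and to 2 without Tomatoneg replicate 3. In CD24negTomato+ none of 14 class I or 18 interferon-γ response genes passed without the block, and the median of the second list was 0.87. With it, Pdia3 (0.64, adjusted P = 0.0402), Gbp7 (3.56, adjusted P = 0.0211) and Ido1 (7.27, adjusted P = 0.0224) were higher, named after their values were seen. Ido1, which degrades tryptophan, was at 4462, 8735 and 6488 in CD24negTomato+ and 1.33, 242 and 118 in Tomatoneg. Ifng itself was at most 1.43 in any library.

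Leukocytes carry class II transcripts too, so their marker genes were measured beside the members, and in bulk samples fewer cells of a type and less RNA per cell cannot be told apart. The summed pan-leukocyte genes (8) came to 315, 256 and 475 in CD24negTomato+ and 1640, 3060 and 3576 in Tomatoneg, whereas the 8 members summed to 14634, 7844 and 59620 and to 14629, 16750 and 82653. Members per unit of leukocyte transcript were thus 46.5, 30.6 and 125 in CD24negTomato+ and 8.92, 5.47 and 23.1 in Tomatoneg, and all 3 CD24negTomato+ libraries were above all 3 Tomatoneg libraries. The difference of the mean log2 ratios was 2.44, and it was 0.65 with Ptprc alone as the leukocyte gene. Per unit of Ptprc the groups overlapped, with 223, 117 and 1573 in CD24negTomato+ and 69.5, 77.2 and 1970 in Tomatoneg, and replicate 3 was lower in CD24negTomato+. Itgb2 (log2 fold change -3.96, adjusted P = 0.0445) and Laptm5 (-3.45, adjusted P = 0.0441) of the list were lower in CD24negTomato+, and 4 were lower with the block. The pan-leukocyte genes do not single out the leukocytes that carry class II, so these ratios are not levels per such cell. Dendritic cell and macrophage genes summed to 146, 118 and 278 in CD24negTomato+ and 89.2, 155 and 237 in Tomatoneg. Those sums overlapped, unlike the pan-leukocyte sums, and members per unit of them were not computed. Of the 12 genes summed, 2 to 10 were under 3 reads in each library. Their sum was higher in CD24negTomato+ than in Tomatoneg in replicates 1 and 3 and lower in replicate 2. The summed members were near equal in replicate 1 and lower in CD24negTomato+ in replicates 2 and 3. The higher ratio in CD24negTomato+ thus holds for the pan-leukocyte sum and was not shown for this list.

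In CD24+Tomato+ the pan-leukocyte sum was 1571, 1271 and 1417, of which Rac2 gave most, and members per unit were 5.63, 7.52 and 31.4 against 9.03, 5.72 and 24.4 in Tomatoneg (difference of mean log2 ratios 0.03). Without Rac2 the leukocyte sum was 325, 204 and 268 in CD24+Tomato+ and 1690, 2323 and 2675 in Tomatoneg. The 7 members without Ctss then gave 25.0, 44.1 and 163 per unit against 7.13, 6.48 and 31.6 (difference 2.31), a setting chosen after the data were seen. Per unit of Ptprc alone, the 8 members gave 62.1, 187 and 1098 in CD24+Tomato+ and 70.9, 78.7 and 2010 in Tomatoneg. These values overlapped, with CD24+Tomato+ lower in replicates 1 and 3 and higher in replicate 2. Tuft cell genes, summed over 10, were at 1994 to 2743 in Tomatoneg and at 17536 to 20799 in CD24+Tomato+, so Rac2 was high together with the tuft genes. Of the pan-leukocyte list, 5 of 8 were lower in CD24+Tomato+, among them Cd53 (-5.65, adjusted P = 0.00954), Itgb2 (-5.08, adjusted P = 0.0102), Cd52 (-3.82, adjusted P = 0.02) and Laptm5 (-3.20, adjusted P = 0.00733).

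**Figure D4:**
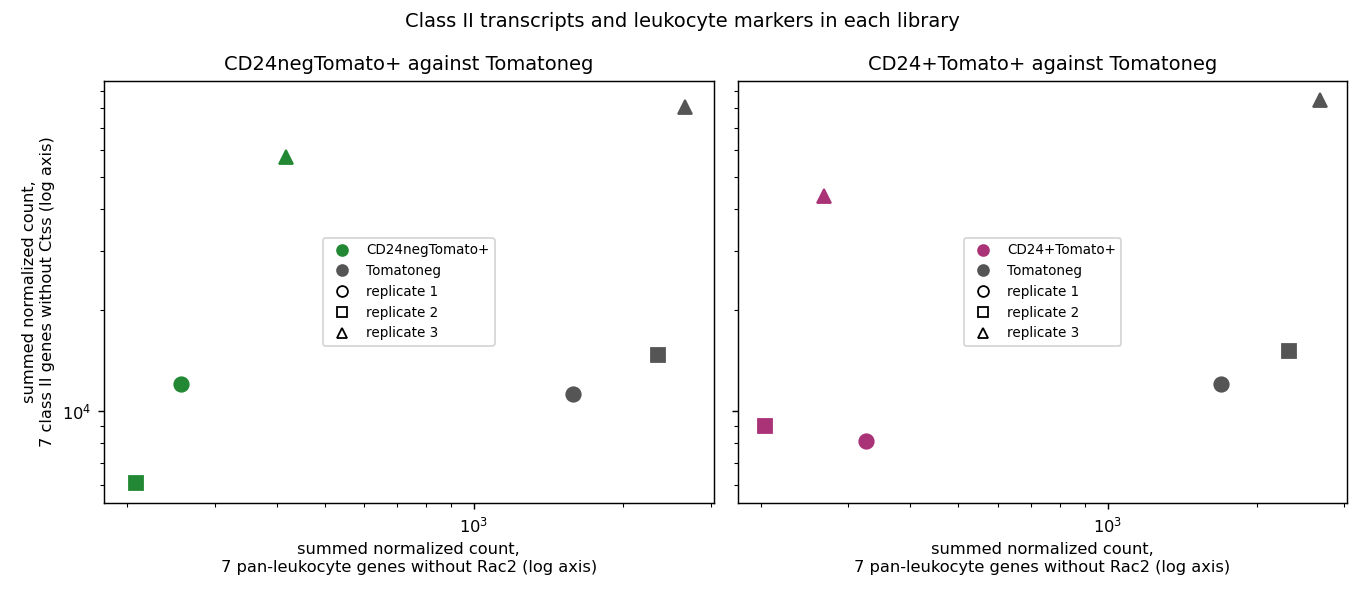
Summed normalized count of the 7 class II genes without Ctss against that of 7 pan-leukocyte genes without Rac2, one point per library, log axes, for the 2 tables. Tomato+ libraries hold 204 to 418 leukocyte counts and Tomatoneg libraries 1585 to 2675, while replicate 3 stands above replicates 1 and 2 in every population.

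The leukocytes that carry class II themselves were measured by their own lists. B cell and plasma cell genes summed to 97.9, 118 and 226 in CD24negTomato+ and 521, 1845 and 1861 in Tomatoneg, and Ighm, the μ heavy chain, was lower (log2 fold change -4.73, adjusted P = 0.0217). In CD24+Tomato+ they summed to 139, 140 and 287, and Cd79a (-4.88, adjusted P = 0.0217) and Ighm (-4.12, adjusted P = 0.0141) were lower. Dendritic cell and macrophage genes summed to 146, 118 and 278 in CD24negTomato+, 112, 98.3 and 154 in CD24+Tomato+ and 89.2, 155 and 237 in Tomatoneg. None of the 6 tested passed in either comparison, and C1qa, of complement, was at 22.9, 32.3 and 97.8 in CD24negTomato+ and 0, 3.17 and 12.7 in Tomatoneg. T cell and intraepithelial lymphocyte genes summed to 3894 to 13669 in Tomatoneg, 708 to 1640 in CD24negTomato+ and 536 to 638 in CD24+Tomato+, with 3 and 11 of 15 called lower. The B cell and dendritic cell sums were highest in replicate 3 of each population, as were the members, and their part in the difference between replicates was not tested. In Tomatoneg replicate 1 the B cell genes Cd79b and Pax5 were at 0, and 10 of 12 dendritic cell and macrophage genes were at or under 3 reads, while the members there summed to 14629, close to the 14634 of CD24negTomato+ replicate 1.

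By correlation with the mean log2 level of the 8 members over the 6 libraries of each table, the genes with the most similar pattern were Acads (0.966, the smaller r of the pair of tables), Gm13328 (0.959), Slc25a1 (0.954), Sephs2 (0.952) and Tgtp2 (0.940), of 13231 genes. The tables share 3 libraries, and r describes mainly the step from replicates 1 and 2 to replicate 3. The steps were smaller than those of the members for 4 of these genes, and Acads, an acyl-CoA dehydrogenase, was 1.80-, 1.86- and 1.47-fold higher in replicate 3 than in the higher other replicate of CD24negTomato+, Tomatoneg and CD24+Tomato+. Tgtp2, an interferon-induced GTPase, was 2.73-, 2.73- and 1.49-fold higher. Among the members, r with their own mean was 0.964 to 0.998 for the 7 genes and -0.09 and 0.32 for Ctss.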

How the data were processed

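Bulk RNA-Seq of 9 libraries was analysed. The deposited values are a signal: per the labels and the study's methods, the authors estimated gene counts with kallisto 0.44.0 on GRCm38, after bcl2fastq 2.19, and scaled them with DESeq2 size factors, separately for 2 tables with 6 libraries in each. The ratio of the 2 values of a shared Tomatoneg library had a median of 1.02 to 1.08, so tests were run only within a table. Whole reads were not recovered (37.3% to 60.1% of low values were whole multiples of the smallest common value, tolerance 0.02), and no count test was run.

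Log2(normalized count + 1) was tested with limma 3.58.1 (lmFit, eBayes with trend, R 4.3.3) where the mean reached 10, in 13420 and 13874 genes, with two-sided Benjamini-Hochberg adjusted P and a threshold of 0.05. The fit was tested on simulated data. An exact permutation test of 3 against 3 cannot go below 0.1. The labels call the replicates biological, but nothing states that they are separate mice, so P values measure the spread between these libraries. Same-numbered libraries were taken as pairs because their deviations from the population means correlated over all genes (r = 0.180 to 0.375). Between libraries of different numbers r was -0.364 to -0.0297. Each fit was run without and with a replicate block. Alternatives were other pseudocounts, filters and scalings, and libraries left out.

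The members and lists were chosen with earlier results of these data known. Named genes are the members, Foxo1, in each list the genes that passed (at most the 4 with the largest change) or else at most the 3 most abundant, and the 5 genes closest in pattern. Some list genes that the rule names are not reported here. Depth is estimated, and levels near 3 reads are not separable from 0. Python 3.11.15, numpy 2.4.6, pandas 2.3.3 and matplotlib 3.10.9 were used.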

Additional observations from a re-analysis of the deposited data

Results flagged for a closer look

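Ifngr1, a chain of the interferon-γ receptor, was the one gene of the lists whose libraries lay apart from Tomatoneg on opposite sides: all CD24negTomato+ libraries were above all Tomatoneg libraries (log2 fold change 0.44, limma adjusted P = 0.366) and all CD24+Tomato+ libraries were below them (log2 fold change -0.81, adjusted P = 0.0612). Of all genes tested, 14.7% had all CD24negTomato+ libraries above and 14.4% had all CD24+Tomato+ libraries below. The share of all genes with both was not computed. Neither change of Ifngr1 passed the threshold without the replicate block. With it the second passed (adjusted P = 0.0136) and the first did not (adjusted P = 0.0992). Both use the same Tomatoneg libraries, and the difference of the fold changes was not tested.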

How the results depend on the processing

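Of the summary values, 118 of their alternatives stayed close to the reported value and 36 moved. The number of class II genes lower in CD24+Tomato+ was 1, and it was 6 with the replicate block, 2 with the block and equal library totals, and 6 with the block and quantile normalization. Leaving out libraries or replicates gave 0 to 7. In CD24negTomato+ it was 0, and 0 to 4 with libraries or replicates left out. The related lists had 0 genes called in CD24negTomato+, 2 with a pseudocount of 10, 2 with quantile normalization, 4 with the block, 4 with the block and equal totals, 4 with the block and quantile normalization, and 0 to 9 with libraries or replicates left out. In CD24+Tomato+ they had 5, with 14 in the block fit, 14 with equal totals added, 19 with quantile normalization added, and 0 to 18 with libraries or replicates left out (18, 12 and 13 in the block fit without replicates 1, 2 and 3). The cause of these shifts was not tested. Other scalings moved the median of all genes in CD24negTomato+ from 0.08 to -0.12 (equal totals).

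Of 336 alternative fold changes of single members, 280 kept their direction and side of the threshold, 23 passed it only in the alternative, 3 no longer passed and 30 changed sign. All 30 left out libraries. Leaving out single libraries or replicates, the log2 fold changes in CD24negTomato+ ran from -1.51 to 0.67 for H2-Aa, -1.19 to 0.43 for H2-Ab1, -1.61 to 0.23 for H2-Eb1, -1.48 to 0.24 for H2-DMa, -1.27 to 0.67 for H2-DMb1, -1.62 to 0.20 for Cd74, -1.37 to 0.34 for Ciita and -0.31 to 0.13 for Ctss. With the block they were 0.21, 0.018 and 0.087 for H2-Aa, H2-DMb1 and Ciita without replicate 2, and 0.018 for Ctss without replicate 1. In CD24+Tomato+ they ran from -1.71 to 0.20 for H2-Aa, -1.36 to 0.26 for H2-Ab1, -1.53 to 0.22 for H2-Eb1, -1.54 to 0.10 for H2-DMa, -1.33 to 0.47 for H2-DMb1 and -1.59 to 0.030 for Cd74, each highest without Tomatoneg replicate 3, where by construction the fit sets unequal replicate numbers against each other. Without the 100 most abundant genes in the library sum, Ctss rose from 77.7, 99.6 and 25.6 ppm of the library sum in CD24negTomato+, Tomatoneg and CD24+Tomato+ to 129, 143 and 39.8. The log2 ratio of members per leukocyte transcript was 2.44 in CD24negTomato+ and 0.65 with Ptprc alone, and in CD24+Tomato+ 0.03, and 2.31 without Ctss and Rac2, a setting chosen after the data were seen, as were all fits that combine the block with another change. Tests on recovered reads were not run. The estimated depth limits genes near 3 reads, and no member was near it.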
